A study of Mus musculus with 4 samples.

Results

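The genes described here encode the respiratory chain of the mitochondrion and its ATP synthase, in MC38 cells exposed to hypoxia, IFN-γ or both. They were chosen by name, as the protein-coding mouse genes whose symbols begin with the prefixes of the subunit families (Ndufa, Ndufb, Ndufc, Ndufs, Ndufv, Uqcr, Cox4 to Cox8 and Atp5), the 4 succinate dehydrogenase genes, Cyc1, Cycs and the 13 proteins encoded by mitochondrial DNA. The choice found 110 of the 27179 genes counted, of which 97 are nuclear and 13 mitochondrial. The prefix Ndufa also took in 8 complex I assembly factors (Ndufaf1 to Ndufaf8), which help to build the complex and are not part of it, so 89 nuclear genes for subunits, isoforms of subunits or cytochrome c remained. 103 of the 110 genes passed the filter on low counts and were tested. The other 7, Cox4i2, Cox6b2, Cox8b, Cox8c, Ndufa4l2, Sdhd and Uqcr11, had between 0 and 6 counts in each library.

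MC38 is a mouse colon carcinoma line, labelled wild type, and every library came from this 1 line. The 4 conditions were an untreated control under normoxic conditions (20% oxygen), an untreated control under hypoxic conditions (1.5% oxygen), IFN-γ at 5 ng/mL for 24 h under normoxic conditions, and the same IFN-γ treatment under hypoxic conditions. Each condition was sequenced as 1 library of poly-A selected RNA, so no condition had a replicate and the variation between cultures was not measured on its own. The question was what hypoxia and IFN-γ, alone and together, did to the transcripts of the cell. The libraries held 34302971 to 34537939 counts, a range too narrow for depth to separate them. Of the markers of the labelled tissue, Cdh1 and Cdx2 were at 0 in every library, Epcam was at 0 to 2 counts, and the 8 epithelial markers summed to 85 to 113 counts a library. Most were from Krt8, at 48 to 90 counts. Krt20 had 12 to 22, Vil1 7 to 17, Krt19 0 to 18 and Krt18 0 to 2. The 7 immune markers summed to 3 to 15 counts, and the 7 endothelial and fibroblast markers, mostly Pdgfra, to 1301 to 1571 counts. In CPM (counts scaled to the size of the library), the endothelial and fibroblast sum was 38.0 to 45.5 and the epithelial sum 2.48 to 3.26.

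The respiratory chain passes electrons from NADH and succinate to oxygen through complexes I to IV, with ubiquinone and cytochrome c as carriers, and complex V uses the resulting proton gradient to make ATP. Complexes I, III, IV and V are built from proteins of both genomes, whereas complex II is wholly nuclear. Mitochondrial genes are transcribed as long polycistronic RNAs from both strands of the circular genome and then cut into single transcripts, while each nuclear subunit has a promoter of its own. Cells in low oxygen are known to turn from respiration to glycolysis.

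Per length of exon, the mitochondrial genes were the most abundant. Length was the union of exons over all annotated transcripts of a gene, which can exceed the length of 1 mRNA. It was 6883 bases for Ndufab1, so the levels of nuclear genes per kilobase may be understated. Their median over the 4 libraries was 464 CPM per kilobase of exon over 13 genes, beside 56.7 over the 88 nuclear subunit genes with a known length. The highest was COX1, the catalytic subunit of complex IV, at 6254 CPM per kilobase. Atp5b, the catalytic β subunit of the ATP synthase, was the highest nuclear gene at 593. Among the complexes, the nuclear genes of complex III had a median of 86.3 CPM per kilobase, those of complex V 80.7, those of complex IV 42.9, those of complex I 40.0 and those of complex II 36.6. The complex I assembly factors were lower, at 11.3. The lowest mitochondrial gene was ND3, a small membrane subunit of complex I, at 4.55 CPM per kilobase, and 98.1% of its 31-base words also occurred in another annotated gene. At least 20% of the words were shared for 7 of the 13 mitochondrial genes and 14 nuclear ones, so that the counting could have split their reads between copies. For COX2, COX3, ATP6 and ND4L the share was 98.9% to 100%. For COX1 it was 63.9%, and for ND4 62.8%. The other mitochondrial genes, ND1, ND2, ND5, ND6, CYTB and ATP8, shared 0% to 16.8%.

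With hypoxia, most respiratory chain transcripts stayed near their normoxic level. By a fit to all 4 libraries, 1 was called raised and 10 were called lowered. Tested with edgeR's quasi-likelihood test and Benjamini-Hochberg adjustment over 13580 genes, 1 of the 103 genes rose, in a table where 8.21% of all genes rose, and 10 fell, where 6.83% of all genes fell. The median log2 change was -0.05 over the 103 genes and 0.00 over all genes tested. By genome, the median was -0.03 over the 82 nuclear subunit genes, of which 1 rose and 3 fell, and -0.18 over the 13 mitochondrial genes, of which 6 fell. Taken pair by pair, the mitochondrial median was -0.06 in the control libraries and -0.28 in the IFN-γ libraries. The lowered genes were ND1, ND2, ND4, ND6, CYTB and COX3 from the mitochondrial genome, the nuclear subunits Cyc1, Ndufb10 and Atp5g1, and the assembly factor Ndufaf4. In a model without the IFN-γ term none of the 10 passed the threshold (6 members were lowered at an unadjusted p under 0.05), and by DESeq2's Wald test 2 did, CYTB and ND2. Ndufv3 rose by every setting tried.

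The raised gene was Ndufv3, an accessory subunit of the part of complex I that oxidises NADH. It had 1370 counts in the control normoxic library, 2410 in the control hypoxic library, 1339 in the IFN-γ normoxic library and 2276 in the IFN-γ hypoxic library. Both hypoxic libraries lay far above both normoxic ones, and within each oxygen level the IFN-γ library and the control were close together. The log2 change with hypoxia was 0.79 (SE 0.0725, edgeR adjusted p = 2.1e-25), or 1.73-fold. It passed the threshold in 7 of 7 alternative fits, with adjusted p from 2.65e-12 to 0.00693. Taken pair by pair, the log2 change was 0.82 without IFN-γ (95% counting interval 0.72 to 0.91) and 0.77 with it (0.67 to 0.87). The IFN-γ change was -0.05 (edgeR adjusted p = 0.904). Its partners in the same part of complex I, Ndufv1 and Ndufv2, had hypoxia log2 changes of -0.04 (adjusted p = 0.692) and -0.01 (adjusted p = 0.922) by the same test. Ndufv3 shared 4.32% of its 31-base words with another gene and overlapped no exon of another gene.

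The 250 bases before the start of Ndufv3 are shown because it was the raised member. They lie at chr17:31519865-31520114 on the + strand of GRCm38.p6, as RefSeq places the start. Capitals mark GCGTG, a form of the core of the hypoxia response element, which read CACGC where it lay on the other strand.
Ndufv3: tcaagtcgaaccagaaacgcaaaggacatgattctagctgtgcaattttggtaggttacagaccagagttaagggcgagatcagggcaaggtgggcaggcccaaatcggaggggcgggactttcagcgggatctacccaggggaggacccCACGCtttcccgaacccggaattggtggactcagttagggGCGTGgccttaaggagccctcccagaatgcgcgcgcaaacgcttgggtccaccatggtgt
GCGTG lay 60 bases before the start on the gene's strand and 100 bases before it on the other strand. ACGTG or GCGTG on either strand, the forms of that core, occurred in 52.1% of the 71 nuclear subunit promoters with a RefSeq entry, beside 56.8% of the promoters of tested genes and 38.6% of all 27025 promoters, so a match is common and marks no site. GCATGCGC, within the palindromic core bound by the nuclear respiratory factor NRF1, occurred in 12.7% of the subunit promoters, beside 4.56% for tested genes and 2.32% for all promoters. The full NRF1 core, which contains it, occurred in 5.63%, 1.64% and 0.781%. The ETS core CCGGAAG occurred in 15.5%, beside 14.1% for tested genes, and AAGATGGC, a core of YY1, in 0%, beside 2.04%.

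**Figure D1:**
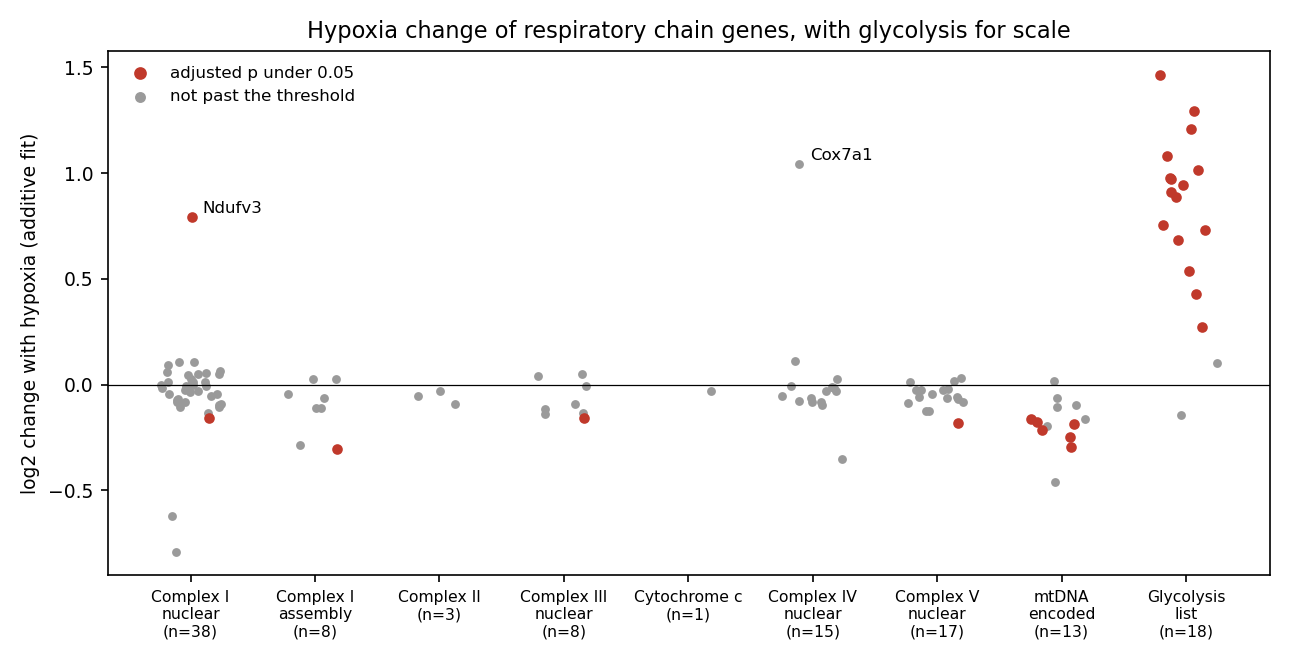
Log2 change with hypoxia from the additive edgeR fit (vertical axis) for each tested respiratory chain gene by complex, with the 18 glycolysis genes for scale. Each point is 1 gene, red where the adjusted p was under 0.05. Ndufv3 stands at 0.79, Cox7a1, at low counts, at 1.04 without passing the threshold, and the mitochondrially encoded genes lie mostly below 0.

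The nuclear genes of complex I otherwise moved little. Of 38 tested, 1 rose and 1 fell, beside 8.21% and 6.83% of all genes tested, with a median log2 change of -0.01. The lowered gene was Ndufb10, a subunit of the membrane arm, with 7326 and 6695 counts in the control normoxic and hypoxic libraries and 6742 and 5914 in the IFN-γ normoxic and hypoxic libraries, a log2 change of -0.16 (edgeR adjusted p = 0.0382). The hypoxic library was the lower of each pair. The IFN-γ normoxic library lay close to the control hypoxic one. The lowest values in the group, -0.79 for Ndufb4c and -0.62 for Ndufb4b, rested on 22 to 58 counts a library and did not pass the threshold (edgeR adjusted p = 0.185 and 0.216). All 31-base words of Ndufb4c occurred in another gene.

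Among the 8 complex I assembly factors, Ndufaf4 fell with hypoxia, beside 6.83% of all genes tested. It had 1572 and 1369 counts in the control normoxic and hypoxic libraries, and 1698 and 1275 in the IFN-γ pair. The log2 change was -0.30 (SE 0.0753, edgeR adjusted p = 0.000933). Both hypoxic libraries lay below both normoxic ones. None of the 9 further complex I assembly genes of a separate list passed the threshold with hypoxia in either direction (0 also at an unadjusted p under 0.05).

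Complex II, succinate dehydrogenase, had no gene past the threshold among the 3 tested. Sdha, the flavoprotein that oxidises succinate, had 10641 and 10438 counts in the control normoxic and hypoxic libraries and 10158 and 9917 in the IFN-γ pair, and its hypoxia log2 change was -0.03 (edgeR adjusted p = 0.786). Sdhb, the iron-sulphur subunit, had 3284, 3176, 3280 and 2982 counts in the same order, a change of -0.09 (adjusted p = 0.383). Sdhc, which anchors the complex in the membrane, had 3764, 3605, 3526 and 3404 counts, a change of -0.05 (adjusted p = 0.636). These spans were a small part of the levels. Sdhd, the other anchor, had 4 to 6 counts a library, far below its 3 partners, and shared none of its 31-base words with another gene. The cause of its low count was not tested.

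In complex III, 1 of the 8 nuclear genes tested fell with hypoxia, beside 6.83% of all genes tested. Cyc1, cytochrome c1, had 11269 and 10038 counts in the control normoxic and hypoxic libraries and 10678 and 9576 in the IFN-γ normoxic and hypoxic libraries. Both hypoxic libraries lay below both normoxic ones. The log2 change was -0.16 (SE 0.053, edgeR adjusted p = 0.022). The core subunits Uqcrc1 and Uqcrc2 had changes of -0.14 (adjusted p = 0.0613) and -0.13 (adjusted p = 0.0896) and did not pass. Uqcrh and Uqcrb, small subunits of the complex, had values of 0.04 and 0.05. Uqcr11, another small subunit, had 3 counts in the IFN-γ normoxic library and 0 in the others, with 12.1% of its words shared, and the cause of its low count was not tested. Cycs, the mobile carrier cytochrome c, had 8147, 8256, 8814 and 8294 counts in the same order, a hypoxia log2 change of -0.03 (edgeR adjusted p = 0.767).

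None of the 15 nuclear genes of complex IV tested passed the threshold with hypoxia by edgeR, and 1 was higher at an unadjusted p under 0.05. DESeq2's Wald test called none of them, but it gave no adjusted p for Cox6a2, Cox7a1, Cox7a2 and Cox7b2. Cox4i1, the general form of the regulatory subunit 4, had 19488 and 19883 counts in the control normoxic and hypoxic libraries and 18750 and 17585 in the IFN-γ normoxic and hypoxic libraries, a log2 change of -0.03 (SE 0.0495, adjusted p = 0.764). Its counterpart Cox4i2, known as the isoform that takes its place in low oxygen in some tissues, had 2, 1, 1 and 2 counts in the same order, at or under the floor of 3 counts in all 4 libraries. The like pair of Ndufa4, a subunit of complex IV despite its name, and Ndufa4l2, known as a target of HIF-1 in many cells, was also one-sided. Ndufa4 had 6087, 6145, 6126 and 6287 counts, and Ndufa4l2 had 4, 2, 1 and 4. Between normoxic and hypoxic libraries, the counts of both isoforms were lower in the control pair and higher in the IFN-γ pair, from 1 to 2 for Cox4i2 and from 1 to 4 for Ndufa4l2. Per length of exon, Cox4i2 took 0.00989% to 0.0224% of the level of its pair. Ndufa4l2 took 0.0206% to 0.0828% of its own. The counts thus showed no replacement of either general form in any library. Changes within so few counts were not resolved.

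The other tissue-restricted isoforms were low too. Cox6b2 and Cox8c were at 0 in every library, which allows up to 3 counts, and Cox8b had 3 counts in the control normoxic library and 0 elsewhere. Cox6a2, the heart and muscle form of subunit 6A, had 163, 164, 174 and 151 counts beside 10825, 10553, 10718 and 10172 for the general Cox6a1. Cox7b2, known from testis, had 76, 54, 49 and 43 counts beside 4703, 4863, 4771 and 4525 for Cox7b. Their hypoxia log2 changes were -0.10 (edgeR adjusted p = 0.784) and -0.35 (adjusted p = 0.503). Cox8a, the general form of subunit 8, had 9715, 9158, 9480 and 8951 counts and a change of -0.08 (adjusted p = 0.343), and Cox6b1 had 4625, 4621, 4417 and 4213 counts and a change of -0.03 (adjusted p = 0.788). The general Cox7a2 had 28, 39, 39 and 33 counts, with 3.40% of its words shared. How reads were assigned to it is not given in the sources used here, and the cause of its low count was not tested. Cox7a2l, a relative that takes part in joining complexes III and IV, had 3514, 3382, 3408 and 3149 counts.

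In complex V, 1 of 17 nuclear genes fell with hypoxia and none rose (also 0 raised at an unadjusted p under 0.05 and by DESeq2). Over all genes tested, 6.83% fell and 8.21% rose. Atp5g1, which encodes the c subunit of the rotor ring, had 7284 and 7025 counts in the control normoxic and hypoxic libraries and 7716 and 6194 in the IFN-γ normoxic and hypoxic libraries, a log2 change of -0.18 (edgeR adjusted p = 0.0116). The hypoxic library was the lower of each pair, and the IFN-γ pair was the wider one. Atp5g2 and Atp5g3, which encode the same mature c subunit, had values of 0.03 and -0.07 and did not pass. Atp5b had 88734, 87150, 85957 and 84085 counts, a change of -0.03 (adjusted p = 0.753).

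The mitochondrially encoded genes gave 6 of the 10 calls. CYTB, cytochrome b of complex III, had 85361 and 76462 counts in the control normoxic and hypoxic libraries and 74563 and 58678 in the IFN-γ normoxic and hypoxic libraries. It was lowest in the library that had both stimuli and highest in the one that had neither. Its log2 change with hypoxia was -0.25 (SE 0.0436, edgeR adjusted p = 4.61e-07), a level lower by the factor 0.841. ND2, a proton-pumping subunit of complex I, had 50185, 47141, 48346 and 38120 counts in the same order, a change of -0.21 (adjusted p = 6.75e-05). ND1, which forms part of the ubiquinone site, had 88276, 86449, 91368 and 71929 counts, a change of -0.19 (adjusted p = 0.000352). Nearly all of the ND1 change came from the IFN-γ pair, whose log2 ratio was -0.34 beside -0.03 in the control pair. The difference between its pairs, -0.32, was wider than the change itself. The test pools its spread across genes, so the small adjusted p does not rest on agreement between the pairs of ND1. ND4 had 31441, 30049, 30686 and 25543 counts, a change of -0.16 (adjusted p = 0.00705). COX3, with 99.9% of its words shared, had 2087, 1744, 1977 and 1568 counts, a change of -0.29 (adjusted p = 0.000782).

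ND6, the one protein encoded on the light strand, had 9504, 8667, 8082 and 6913 counts, a hypoxia log2 change of -0.18 (edgeR adjusted p = 0.0124). The libraries kept the strand, but the strand setting of the counting is not given in the sources used here, so ND6 reads and antisense reads of that region cannot be told apart. ND5, its neighbour on the other strand, had 55372, 55174, 50232 and 46117 counts, with a hypoxia change of -0.06 (adjusted p = 0.403). COX1 had 337315, 356520, 323652 and 313468 counts and a change of 0.02 (adjusted p = 0.811). COX1 was the mitochondrial gene whose control hypoxic library was the highest of the 4. COX2 had 3193, 3377, 3522 and 2896 counts and a change of -0.10 (adjusted p = 0.333). The complex V genes ATP6, with 1876, 1837, 1862 and 1634 counts, and ATP8, with 646, 657, 685 and 535, had changes of -0.11 (adjusted p = 0.362) and -0.16 (adjusted p = 0.282). ND3, with 51, 47, 76 and 44 counts, and ND4L, with 242, 220, 209 and 174, had changes of -0.46 and -0.20 with SEs of 0.305 and 0.154 (adjusted p = 0.345 and 0.451).

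IFN-γ raised none of the 103 genes and lowered 5, in a table where 4.76% of all genes rose and 1.1% fell by edgeR's quasi-likelihood test. None was raised at an unadjusted p under 0.05 or by DESeq2 either, and 16 were lowered at an unadjusted p under 0.05. The median log2 change was -0.05 over the 103 genes, -0.05 over the nuclear subunits and -0.11 over the mitochondrial genes, beside -0.01 over all genes tested. Taken pair by pair, the mitochondrial median was -0.04 under normoxic conditions and -0.25 under hypoxic conditions. 4 of the 5 lowered genes were mitochondrial. CYTB had an IFN-γ log2 change of -0.27 (edgeR adjusted p = 1.45e-08), ND6 -0.27 (adjusted p = 4.06e-05), ND5 -0.19 (adjusted p = 0.00102) and ND2 -0.17 (adjusted p = 0.0062). For CYTB and ND6, the control normoxic library was the highest and the IFN-γ hypoxic library the lowest. COX1 had a value of -0.11 and did not pass (adjusted p = 0.0692), but it passed with scaling by total counts (-0.13, edgeR adjusted p = 0.043) and by total counts without the mitochondrial genes (-0.13, adjusted p = 0.0177). By DESeq2's Wald test CYTB and ND6 passed, and without the oxygen term in the model none of the 5 did (3 members were lowered at an unadjusted p under 0.05).

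The nuclear gene lowered by IFN-γ was Cox7a1, the heart and muscle isoform of complex IV subunit 7A, at very low counts. It had 21 counts in the control normoxic library, 44 in the control hypoxic library, 6 in the IFN-γ normoxic library and 12 in the IFN-γ hypoxic library. Both IFN-γ libraries lay below both controls. The IFN-γ log2 change was -1.82 (SE 0.520, edgeR adjusted p = 0.0103), past the threshold in 3 of the 6 alternative fits that kept the gene. The hypoxia change was 1.04 (SE 0.507, adjusted p = 0.162). None of its 31-base words occurred in another gene.

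Its 250 bases before the start, shown because it carried the widest IFN-γ change among the members, lie at chr7:30183921-30184170 on the + strand of GRCm38.p6, as RefSeq places the start. Capitals mark GCGTG, or CACGC where it lay on the other strand.
Cox7a1: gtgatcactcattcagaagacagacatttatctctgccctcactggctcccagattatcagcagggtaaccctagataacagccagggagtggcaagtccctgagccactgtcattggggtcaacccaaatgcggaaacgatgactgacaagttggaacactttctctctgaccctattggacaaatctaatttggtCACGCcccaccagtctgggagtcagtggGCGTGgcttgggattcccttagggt
GCGTG lay 25 bases before the start on the gene's strand and 53 bases before it on the other strand.

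The library given both stimuli held the least of most of these transcripts. After scaling by TMM, the IFN-γ hypoxic library was the lowest of the 4 for 70 of the 103 genes, whereas it was the lowest for 27.7% of all genes tested. This held for 13 of the 13 mitochondrial genes and 53 of the 82 nuclear subunits, and for 47 of the 68 nuclear subunits with under 20% shared words. It was the highest for 2 of the 103. Summed over genes, the mitochondrial transcripts of the IFN-γ hypoxic library stood at -13.8% relative to the control normoxic library, while the control hypoxic and IFN-γ normoxic libraries stood at 0.600% and -3.61%. The nuclear subunits stood at -1.33% in the control hypoxic library, -1.21% in the IFN-γ normoxic library and -5.92% in the IFN-γ hypoxic library. By complex, the IFN-γ hypoxic library stood at -5.00% for nuclear complex I, -6.82% for complex II, -9.43% for nuclear complex III, -6.15% for nuclear complex IV and -5.66% for nuclear complex V. A lower level in bulk RNA may reflect fewer cells with the transcript or less of it per cell, which cannot be told apart.

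**Figure D2:**
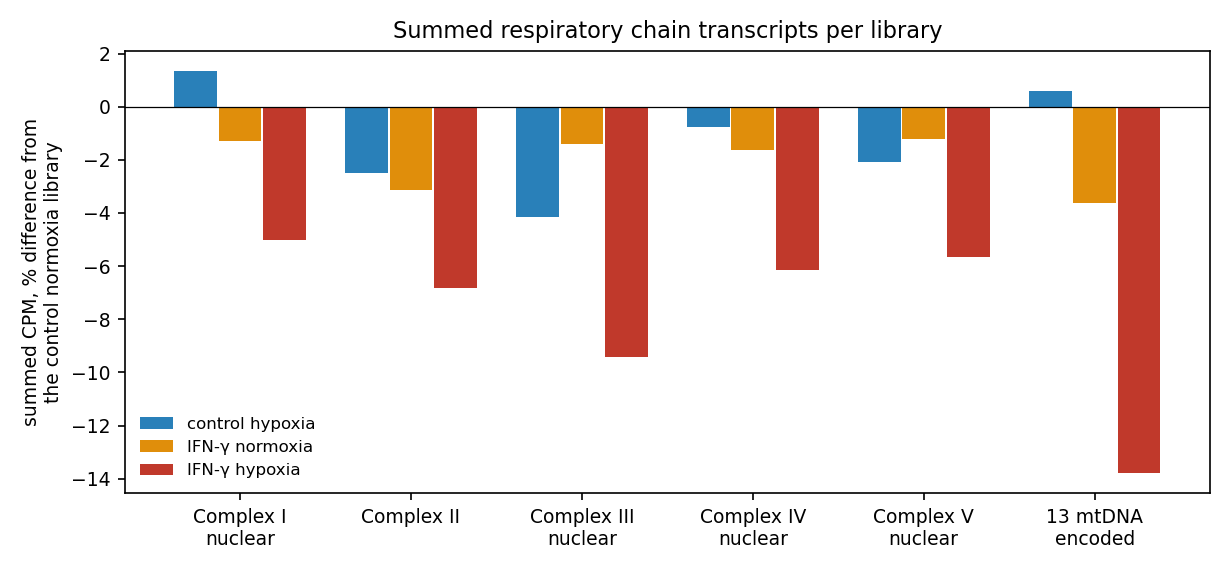
Percent difference in summed CPM from the control normoxic library (vertical axis) for the nuclear genes of each complex and for the 13 mitochondrially encoded genes, with 1 bar for each of the other 3 libraries and no error bars because each is 1 library. The red bars of the IFN-γ hypoxic library are the lowest in each group, from -5.00% for nuclear complex I to -13.8% for the mitochondrial genes.

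As a share of all counts, the 13 mitochondrial genes took 1.94% in both control libraries, 1.84% in the IFN-γ normoxic library and 1.65% in the IFN-γ hypoxic library. The exact binomial 95% intervals, which cover counting error only, were 1.936% to 1.945%, 1.932% to 1.941%, 1.835% to 1.844% and 1.645% to 1.653% in the order control normoxic, control hypoxic, IFN-γ normoxic and IFN-γ hypoxic. COX1 alone took 0.983%, 1.03%, 0.937% and 0.911%. Without COX1, the other 12 took 0.957%, 0.903%, 0.902% and 0.738%, the last being the lowest of the 4 libraries. The mitochondrial ribosomal RNAs, counted in the same libraries, were lowest in the control normoxic library and highest in the IFN-γ hypoxic one. These were libraries of poly-A selected RNA, and how completely ribosomal RNA was captured in each was not tested. mt-Rnr1 had 8111 and 9228 counts in the control normoxic and hypoxic libraries and 10230 and 10893 in the IFN-γ normoxic and hypoxic libraries, and its IFN-γ log2 change was 0.30 (edgeR adjusted p = 8.75e-07). mt-Rnr2 had 6303, 6928, 6750 and 7011 counts, an IFN-γ change of 0.07 (adjusted p = 0.692). Their hypoxia changes were 0.14 (adjusted p = 0.0566) and 0.10 (adjusted p = 0.263) by the same test. For both RNAs the hypoxia change was lower in the IFN-γ pair than in the control pair, as for most members. The differences were -0.10 (95% counting interval -0.15 to -0.04) and -0.08 (-0.15 to -0.01). Whether the ribosomal RNA counts and those of the protein-coding transcripts are linked was not tested.

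**Figure D3:**
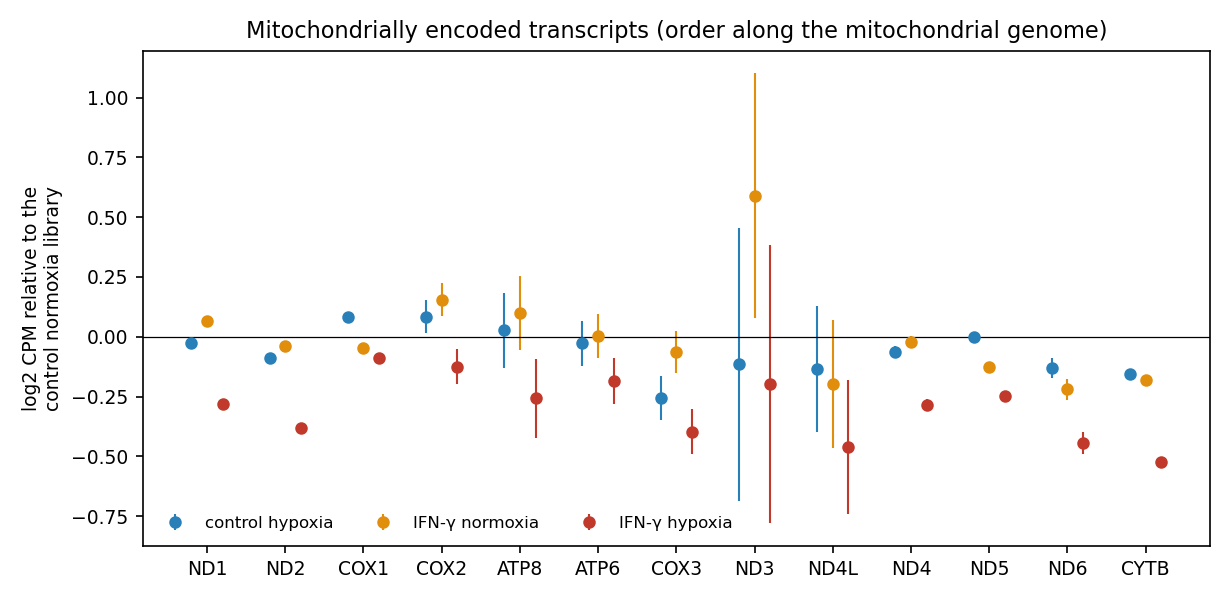
Log2 CPM of each mitochondrially encoded gene relative to the control normoxic library (vertical axis), in the order of the genes on the mitochondrial genome, for the other 3 libraries. Bars are 95% intervals from counting error. The IFN-γ hypoxic point is the lowest for all 13 genes, though intervals overlap for some genes of low count, ND3 and ND4L among them.

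The change with hypoxia was more negative in the IFN-γ pair of libraries than in the control pair. Among the 97 members with at least 100 counts in every library, the difference of the log2 changes (with IFN-γ minus without) was below 0 for 82, and its 95% counting interval lay below 0 for 42 and above 0 for 2. Over all 10443 genes at that depth, 19.7% had an interval below 0 and 14.8% above, and the median difference was -0.02. The 12 mitochondrial genes at that depth were all below 0, 10 with the interval below 0, and had a median of -0.17. By the additive fit, the median hypoxia change of all 13 was -0.18, so the departure from additivity was about as wide as the change. Among 77 nuclear subunits, 28 lay below, 2 above, and the median was -0.07. With 1 library per condition this difference has no test, and an effect of the 2 stimuli together cannot be told apart from an effect of the 1 library that had both. Leaving that library out leaves the additive fit without a residual degree of freedom, and the control pair alone then gives a median hypoxia log2 change of -0.06 for the mitochondrial genes and 0.00 for the nuclear subunits, beside -0.28 and -0.07 in the IFN-γ pair.

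The hypoxia changes of the pairs had opposite signs, both with intervals that left out 0, in 7 members, beside 3.29% of all genes tested, and the IFN-γ changes did in 8, beside 5.11%. Single genes showed how the pairs differed. For ND1 the hypoxia log2 change was -0.03 (95% counting interval -0.04 to -0.01) without IFN-γ and -0.34 (-0.36 to -0.33) with it, a difference of -0.32 (-0.34 to -0.30). For CYTB the pair values were -0.16 and -0.34, a difference of -0.19 (-0.21 to -0.17). CYTB was thus lower with hypoxia in both pairs, whereas ND1 was lower mainly in the presence of IFN-γ. Ndufa6, an accessory subunit of complex I with 385, 478, 424 and 393 counts, had the lowest difference of the 97, at -0.42 (-0.70 to -0.15). Atp5c1, the central stalk γ subunit of the ATP synthase, with 11965, 10611, 10888 and 10882 counts, had the highest, at 0.17 (0.12 to 0.23). Ndufv3 was among the members whose pairs agreed within counting error, with a difference of -0.05 (-0.19 to 0.09).

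**Figure D4:**
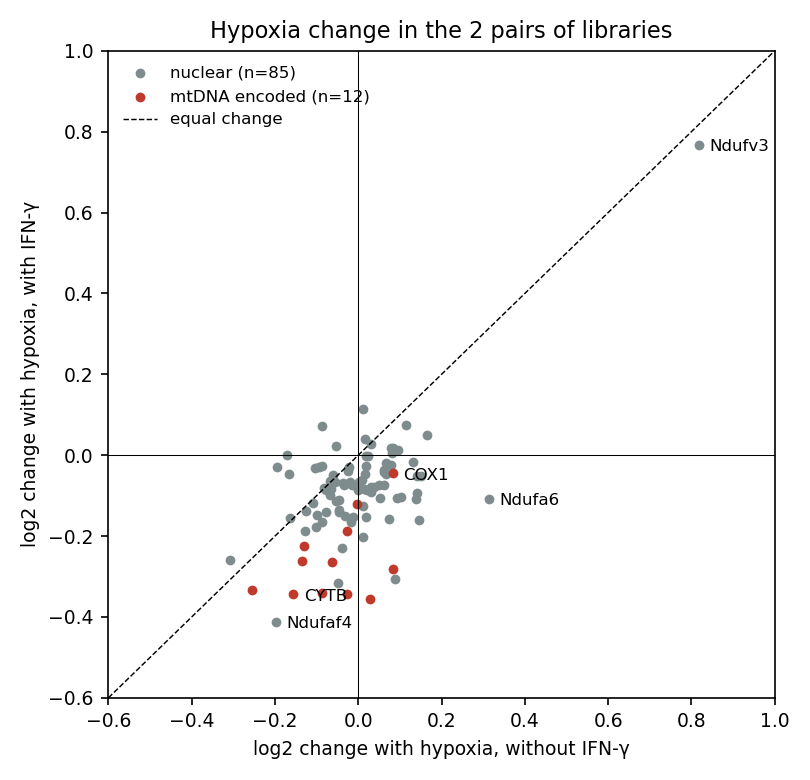
Log2 change with hypoxia in the control pair (horizontal axis) against the IFN-γ pair (vertical axis) for the 85 nuclear and 12 mitochondrially encoded members with at least 100 counts in every library, with a dashed line where both are equal. Each point is 1 gene. Ndufv3 lies near the line at 0.82 and 0.77, and most other points, with all 12 mitochondrial ones, lie below it.

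Genes that serve the respiratory chain were described from separate lists. For scale, 8.21% of all genes tested rose with hypoxia and 6.83% fell. Of 18 genes of glycolysis, 16 rose with hypoxia and none fell (0 at an unadjusted p under 0.05), with a median log2 change of 0.90. Ldha, which makes lactate, had 84418 and 161768 counts in the control normoxic and hypoxic libraries and 79817 and 153758 in the IFN-γ pair, a change of 0.94 (SE 0.0421). Of 18 genes of the TCA cycle and pyruvate dehydrogenase, 1 fell, Idh3b (-0.16, edgeR adjusted p = 0.0481), and none rose (0 at an unadjusted p under 0.05), with a median of -0.04.

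A list of genes known to remodel respiration in low oxygen had 8 raised and 1 lowered among 13 tested. The shares over all genes were 8.21% and 6.83%. The median of the list was 0.74. Pdk1, a kinase that shuts off pyruvate dehydrogenase, rose by 1.28 on the log2 scale. Bnip3, which acts in the removal of mitochondria, had a change of 1.68. Lonp1, the matrix protease known to degrade Cox4i1 protein in low oxygen, rose by 0.74, while Cox4i2, the isoform known to take the place of Cox4i1, was at or under the floor as given above. The lowered member was Chchd4, which imports proteins with disulphide bonds into the intermembrane space, at -0.37.

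Factors that assemble the complexes moved less. Among 20 tested for complex IV, 1 rose and 3 fell with hypoxia, beside 8.21% and 6.83% of all genes, with a median of -0.10. Cox10, which makes haem for cytochrome oxidase, had 1007, 773, 981 and 752 counts and a change of -0.38 (edgeR adjusted p = 0.000176). Coa6, a copper delivery factor, had 585, 475, 587 and 411 counts and a change of -0.40. Coa3 had a change of -0.26, and the raised gene was Cox11, another copper factor, at 0.23 (adjusted p = 0.0276). Of 6 genes for complex III assembly, Bcs1l fell (-0.25, adjusted p = 0.0149), and none of 4 for complex II or 3 for complex V passed (1 and 0 at an unadjusted p under 0.05).

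Of 27 genes that copy or transcribe the mitochondrial genome, or process, stabilise or degrade its RNA, 5 fell with hypoxia and none rose. Over all genes tested, 6.83% fell and 8.21% rose. The median of the 27 was -0.13 (1 was raised at an unadjusted p under 0.05). Elac2, which cuts the ends of mitochondrial tRNAs from the long transcripts, had 2550, 2106, 2563 and 1963 counts and a change of -0.33. Lrpprc, which stabilises mitochondrial mRNAs, had 8671, 7867, 8518 and 7464 counts and a change of -0.16 (edgeR adjusted p = 0.0243). The others were Polg2 at -0.47, and Fastkd1 and Fastkd2, named after their values were seen, at -0.24 and -0.21. With IFN-γ, 1 of the 27 rose, beside 4.76% of all genes tested. It was Pnpt1, which degrades RNA in mitochondria, with 3560 and 3408 counts in the control normoxic and hypoxic libraries and 4535 and 3840 in the IFN-γ pair, an IFN-γ log2 change of 0.27 (SE 0.0615, edgeR adjusted p = 0.000249). The part of these genes in the mitochondrial transcript levels was not tested. Of 11 nuclear regulators of respiratory genes, Pprc1, a PGC-1 related coactivator, fell with hypoxia by 0.44 on the log2 scale and Gabpb2, a partner of the ETS factor GABPA, rose by 0.17. Of 19 genes of ubiquinone synthesis and electron entry, Coq8b, which acts in ubiquinone synthesis, rose with both stimuli, by 0.41 with hypoxia and 0.39 with IFN-γ (edgeR adjusted p = 0.0149 and 0.0419).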

How the data were processed

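RNA-seq counts of MC38 cells were analysed as the authors deposited them, as whole-number counts of reads per gene, with 1 table for 4 libraries and no normalization. The company aligned the reads, 100 bases from both ends of each fragment, with HISAT2. The submitters' processing notes name featureCounts and mm10 without versions. Annotation, strand setting and treatment of reads that match several genes are not given in the sources used here. 0 columns lacked a sample, and 25275 of 27179 gene IDs matched a symbol.

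The members and gene lists were chosen with earlier results of these data known. edgeR 4.0.16 in R 4.3.3 was run with TMM, its filter with a minimum of 10 counts, and a quasi-likelihood test (two-sided, Benjamini-Hochberg adjustment over 13580 genes, threshold 0.05) of an additive model of oxygen and IFN-γ. Without replicates, the spread is the departure from additivity, with 1 residual degree of freedom per gene pooled across genes (coefficient of variation 4.71%). Any interaction counts as spread, and the p-values do not measure variation between cultures. Single pairs are log2 ratios with 0.5 counts added and exact conditional 95% intervals. Differences between pairs have Poisson intervals. These cover counting error only. 3 counts, about 0.087 CPM, were taken as the floor.

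Every member could be named with its counts. Full statistics went to the isoforms and their counterparts, complex II, Cyc1, Cycs, Cox7a2l, the mitochondrial genes and, per stimulus, the 5 raised and 5 lowered members with the largest change past the threshold, and list genes past the threshold were named, at most 4 a list. Statistics of Atp5g1, Ndufb10 and the members described by the difference between pairs were added after their values were seen. Lengths, exon overlaps and shared 31-base words came from the GENCODE annotation and transcripts of GRCm38, promoters from RefSeq (GRCm38.p6). 5 pseudogene rows were left out.

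The alternatives were DESeq2 size factors, DESeq2's Wald test (1.42.0), no filter, at least 10 counts in every library, no term for the other stimulus, total counts with and without the mitochondrial genes, each pair alone, a share of counts among tested genes, and 5 counts added. Tested on simulated data for the hypoxia effect over 13580 genes, the fit recovered 76% of 100 genes changed by 0.5 on the log2 scale and 89% of 100 changed by 1, with 4 false among 169 calls. The simulated data held no IFN-γ effect, no interaction and the same spread for every gene. They therefore do not show how often calls in the real data are false. The lowered hypoxia calls, all smaller than 0.5, lie outside the sizes simulated.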

Additional observations from a re-analysis of the deposited data

Results flagged for a closer look

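In 11 members the changes in the 2 pairs of libraries had opposite signs, each with a counting interval that left out 0. This was so for the hypoxia changes without and with IFN-γ in 7 members, beside 3.29% of 13580 genes tested, and for the IFN-γ changes under normoxic and hypoxic conditions in 8, beside 5.11%. With 1 library per condition the difference was not tested. It is given as the log2 change with both stimuli less the sum of the single ones, and is the same number for either stimulus.

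For hypoxia and IFN-γ both, it was -0.25 for Atp5j, a subunit of the ATP synthase stalk, -0.36 for COX2, -0.31 for Ndufa2 and -0.20 for Ndufa9, the last 2 being complex I subunits. In these 4 genes either single stimulus gave a higher level and both together a level near or below the control. Ndufa2 had 1567, 1731, 1745 and 1561 counts in the control normoxic, control hypoxic, IFN-γ normoxic and IFN-γ hypoxic libraries. For hypoxia alone it was -0.13 for COX1, -0.12 for Cox4i1 and -0.20 for Uqcrq. For IFN-γ alone it was -0.057 for Atp5a1, -0.27 for Atp5g1 and -0.32 for ND1. Atp5c1 was the member with a positive value, 0.17, where IFN-γ went with a lower level under normoxic and a higher level under hypoxic conditions.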

How the results depend on the processing

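Hypoxia raised 1 member, Ndufv3, in all 7 alternative fits, and IFN-γ raised 0 in all 7. The 10 members lowered by hypoxia became 2 by DESeq2's Wald test, where 8 members had no adjusted p, and 0 without the IFN-γ term, whose effect that model counts as spread. They were 8 without a filter (without Atp5g1 and Ndufb10) and 11 with total counts without the mitochondrial genes (with Uqcrc1). The 5 lowered by IFN-γ became 2 by DESeq2's Wald test, 3 without a filter, 3 with at least 10 counts in every library and 0 without the oxygen term, and 6, with COX1, by total counts with or without the mitochondrial genes. The cause of the DESeq2 and filter values was not tested. No result changed sign past the threshold. Of the values that answer a comparison, 26 equalled or stayed near the main value, and 6 were weaker. The 26 include the counts of 8, 11 and 6 members above, where single genes crossed the threshold. The median for the mitochondrial genes moved with the pair, as given above. No paired analysis was possible because each condition has 1 library, so that there are no replicate numbers to pair. The additive fit does compare each stimulus within the levels of the other, and the models with 1 term drop that. Leaving out a library was not possible as a test, since the additive fit then has no residual degree of freedom. Depth limits the isoforms at or under 3 counts, and shared sequence limits the 21 members with at least 20% shared words.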
